A study of Mus musculus with 24 samples.

Results

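These results describe 571 genes of mouse chromosome 4 in the clonal lines Abl.1 and Abl.2. The genes were chosen by their counts: each had 100 or more allelic counts pooled over the 2 libraries of Abl.1 and again over the first sequencing run of the 2 libraries of Abl.2, and Cdkn2a, Cdkn2b and Pax5 were left out. They are 571 of the 2707 chromosome 4 genes in the table, of which 1162 had any count in these libraries, and of 37315 genes in all. Abl.1 and Abl.2 are clones of immortalised B cells (Abelson lymphoblastoid lines) from female 129S1/SvImJ x CAST/EiJ F1 mice, both labelled as the control of a drug treatment. Each clone is represented by 2 library preparations (SMARTseq kit, 10 ng of total RNA), so each comparison is between 1 clone and 1 other clone and the spread is that of library preparation. Both Abl.2 libraries were also sequenced a second time. As a comparison with 2 parental alleles, 6 libraries of the same kit and input, made from the kidney RNA of 1 mouse, were used, an adult F1 female from 129S1 and Cast/Ei parents. The titles of these kidney libraries also say control. The measurement is the number of allele-specific counts per gene, in a maternal column, which the study's methods give as 129S1, and a paternal column, given as Cast/Ei, and allelic imbalance (AI) is the maternal count divided by the sum of both. The column names were kept as deposited, and which strain each holds was not tested here. Since chromosome 4 was singled out for its AI in Abl.2, that AI is described without a test.

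In an F1 cell most autosomal genes are transcribed from both parental copies, and reads over strain differences then give an AI near the middle of the range. An AI near the upper or lower end means that nearly all RNA came from 1 allele, as happens on the X chromosome of a female clone, where the same X is silent in every cell. RNA counts report the RNA of each allele and not the number of DNA copies, and in bulk RNA fewer cells of a type and less RNA per cell cannot be told apart. Mouse chromosome 4 carries genes that act in lymphoid cells, among them the kinases Lyn, Lck and Jak1, the transcription factors Bach2, Runx3 and E2f2, and the B cell receptor modulator Cd72.

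The promoters below belong to genes on which the exceptions and changes turn: Tln1 and Creb3, which start head to head with overlapping ends and differ in AI, their neighbour Gba2, Prkcz, the gene read from the other allele, and Runx3, the gene with the largest rise of the maternal allele among the 571. The windows run from 250 bases before to 50 bases after the start site (RefSeq, GRCm38.p6, 5′ to 3′ on the gene's strand) and the capitals mark CG steps, where DNA methylation acts in mammals.
Tln1, chr4:43562534-43562833, minus strand: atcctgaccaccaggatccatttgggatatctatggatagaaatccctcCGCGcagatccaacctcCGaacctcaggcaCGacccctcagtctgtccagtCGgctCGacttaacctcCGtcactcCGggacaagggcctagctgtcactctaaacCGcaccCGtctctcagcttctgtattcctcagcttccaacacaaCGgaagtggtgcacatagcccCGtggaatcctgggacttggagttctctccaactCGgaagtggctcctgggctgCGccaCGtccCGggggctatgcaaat
Creb3, chr4:43562408-43562707, plus strand: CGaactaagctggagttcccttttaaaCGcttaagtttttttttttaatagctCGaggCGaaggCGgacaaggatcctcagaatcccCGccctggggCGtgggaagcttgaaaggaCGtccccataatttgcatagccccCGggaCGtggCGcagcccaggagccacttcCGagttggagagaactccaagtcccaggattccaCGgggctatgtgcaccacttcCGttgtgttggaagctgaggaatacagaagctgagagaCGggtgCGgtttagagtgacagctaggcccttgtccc
Gba2, chr4:43578815-43579114, minus strand: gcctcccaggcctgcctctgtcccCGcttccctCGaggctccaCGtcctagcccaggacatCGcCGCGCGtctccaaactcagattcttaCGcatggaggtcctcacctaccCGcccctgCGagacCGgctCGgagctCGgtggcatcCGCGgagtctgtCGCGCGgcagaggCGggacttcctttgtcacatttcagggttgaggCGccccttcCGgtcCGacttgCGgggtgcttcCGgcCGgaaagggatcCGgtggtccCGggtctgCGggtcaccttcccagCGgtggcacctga
Prkcz, chr4:155361379-155361678, minus strand: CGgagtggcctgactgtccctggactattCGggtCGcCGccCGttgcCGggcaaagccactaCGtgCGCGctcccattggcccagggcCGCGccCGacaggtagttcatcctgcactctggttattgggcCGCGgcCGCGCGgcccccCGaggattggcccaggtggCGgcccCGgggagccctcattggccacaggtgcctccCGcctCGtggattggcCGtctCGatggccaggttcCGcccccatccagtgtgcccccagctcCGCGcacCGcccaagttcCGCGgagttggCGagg
Runx3, chr4:135120395-135120694, plus strand: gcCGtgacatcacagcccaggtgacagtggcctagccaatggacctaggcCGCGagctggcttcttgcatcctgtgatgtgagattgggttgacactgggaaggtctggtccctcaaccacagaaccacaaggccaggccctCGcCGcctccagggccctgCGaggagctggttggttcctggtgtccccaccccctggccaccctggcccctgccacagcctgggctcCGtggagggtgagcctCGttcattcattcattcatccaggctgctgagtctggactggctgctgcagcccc
The windows of Tln1 and Creb3 share 174 bases on opposite strands. Each of them held 16 CG steps, against 29 in Gba2, 31 in Prkcz and 8 in Runx3. A window was found for 435 of the 571 genes, with a median of 22 CG steps against 7 over all 32851 windows, and 94.6% of all windows held at least 1. The 9 windows of protein-coding genes with at least 10% paternal counts in both Abl.2 libraries, Prkcz and Creb3 among them, had a median of 18. The 419 windows of the other protein-coding genes had 22, with overlapping middle ranges of 16 to 28 and 16 to 29.

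Along the whole of chromosome 4, nearly all RNA in Abl.2 came from the maternal allele. The median AI of the 571 genes was 0.9989 and 0.9988 in the 2 Abl.2 libraries, against 0.509 and 0.507 in the 2 Abl.1 libraries. In Abl.2, 519 genes (90.9%) had an AI of at least 0.99 in both libraries, while in Abl.1 514 genes (90.0%) lay between 0.3 and 0.7. The pattern ran from the first gene, Tgs1 (chr4:3574875-3616619, GRCm38), to the last, Noc2l (chr4:156236010-156247616). Tgs1 methylates the caps of small nuclear RNAs to their trimethylated form, and Noc2l is an inhibitor of histone acetylation. Tgs1 had AI values of 0.528 and 0.475 in Abl.1 and 1 and 0.9995 in Abl.2, and Noc2l had 0.445 and 0.474 in Abl.1 and 0.9980 and 0.9982 in Abl.2. In 16 windows of 10 Mb the median AI stayed between 0.9978 and 0.9992 in Abl.2 and between 0.459 and 0.532 in Abl.1. Over genes of the other autosomes with the same count floor, chromosome medians lay between 0.338 and 0.512 in Abl.2 and between 0.482 and 0.593 in Abl.1.

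**Figure D1:**
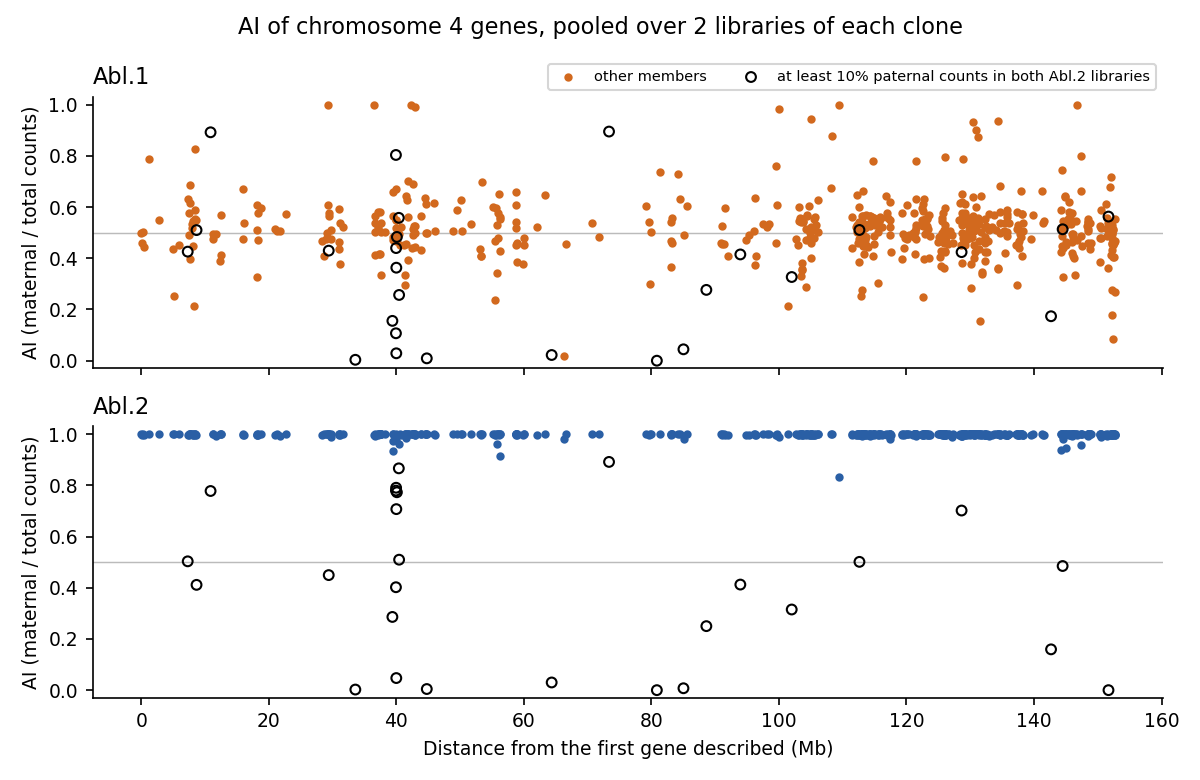
AI (maternal over total counts, pooled over the 2 libraries of a clone) of each chromosome 4 gene by its distance in Mb from the first gene described, for Abl.1 (upper panel) and Abl.2 (lower panel). Abl.1 points scatter around 0.5, Abl.2 points lie near 1 from end to end, and the 27 open circles are the genes with at least 10% paternal counts in both Abl.2 libraries.

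The paternal allele was close to absent. It gave a median of 0.126% of the counts of a gene in Abl.2, pooled over both libraries, and no count at all in 101 genes. Summed over all 571 genes the paternal share was 0.656% and 0.663% in the 2 libraries, and over the 525 protein-coding genes outside the exceptions below it was 0.16% and 0.176%. In Abl.1 the paternal share over the 571 genes was 48.6% and 49.0%. The second sequencing of the Abl.2 libraries gave 0.666% and 0.682%. For comparison, the 221 X-linked genes at the same floor had a median AI of 0.0012 or less in the 2 Abl.2 libraries, read from the other allele, while 6.99% and 7.32% of their summed counts were maternal. A count of 0 still allows a share of up to 3 counts of the total: for Ripk2, a kinase of innate immune signalling, 0 of 2109 counts allows up to 0.142%, and for Plaa, a ubiquitin-binding protein, 0 of 4467 allows up to 0.0672%. These limits cover counting error only, since reads were not marked by molecular identifiers and a read over several strain differences counts at each.

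Although almost no RNA came from the paternal allele, the median total level of chromosome 4 genes was close to that in Abl.1. Levels are given as CPM (counts relative to the library total, scaled by the trimmed mean of M values, TMM), and fold changes are those of edgeR. The median log2 fold change of total counts was 0.04 over the 571 genes, with a middle range of -0.70 to 0.58. Over 5494 genes of the autosomes other than 4, 5, 7, 10 and 11 (the reference autosomes, whose median AI lay between 0.482 and 0.516 in both clones) it was 0.01, and over all genes tested 0.01. The difference between the chromosome 4 median and the reference median was 0.02, a ratio of 1.02, and 290 of the 571 genes lay above the reference median. The medians of the other autosomes ranged from -0.13 to 0.65, and chromosome 4 lay within that range. Among the reference autosomes chromosome 18 had the highest median, 0.25. Chromosome 7 was left out of the reference although its median AI, 0.485 in Abl.1 and 0.501 in Abl.2, lay in the range of the reference autosomes. As shares of plain library totals, chromosome 4 genes took 7.29% and 7.18% of all counts in Abl.1 and 7.45% and 7.49% in Abl.2. On the TMM scale the summed level of the 571 genes was lower in Abl.2, unlike their median. It was 85053 and 74686 CPM in Abl.1 and 64537 and 65220 CPM in Abl.2.

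Single genes moved in both directions. A gene was called when its adjusted p was below 0.05 and its log2 fold change at least 1 in size, and of the 571 genes 68 (11.9%) were higher in Abl.2, against 16.5% of all 12526 genes tested, and 92 (16.1%) were lower, against 19.8%. Among reference autosome genes with the same count floor, 12.8% were higher and 14.9% lower. The shares on chromosome 4 were thus close to this background. The split depends on the scaling: with library sizes set to the counts of the reference autosomes, the medians of chromosome 4 and of the reference autosomes moved to 0.40 and 0.38, and 127 genes of chromosome 4 were called higher and 58 lower, against 25.1% and 15% of all genes tested. The difference of both medians was 0.01 on the log2 scale with that scaling. A gene that fell silent in 1 clone could not be among the 571, and 65 chromosome 4 genes reached the floor in Abl.1 only and 58 in Abl.2 only.

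The maternal allele on its own gave more RNA in Abl.2 than in Abl.1 in most genes. Its median log2 fold change was 0.99 over 566 genes with enough maternal counts, with a middle range of 0.25 to 1.55, and 0.04 over 5429 genes of the reference autosomes, a ratio of 1.93. Of these genes, 458 (80.9%) lay above the reference median. This ratio combines the total level with the AI that singled out the chromosome, so it is given as a description and nothing is read from its count of calls: 272 genes (48.1%) were called higher and 30 (5.30%) lower, against 18.4% and 19.3% of all 10999 genes tested. Measured from the reference median, 241 genes (42.6%) lay between 0.5 and 1.5 on the log2 scale, the range around a doubling, and 114 (20.1%) lay within 0.5 of no change. A further 143 were above 1.5 and 68 were below -0.5. Among reference autosome genes the range around no change was the largest group, with 39.3%, and 23.0% lay around a doubling.

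Named genes show what this meant for each allele. Tgs1 gave 29.5 and 23.0 CPM from the maternal and 26.3 and 25.4 CPM from the paternal allele in the Abl.1 libraries, and 71.4 and 82.8 CPM from the maternal allele in Abl.2. Rpa2, a subunit of the single-stranded DNA binding protein RPA, gave 448 and 441 CPM maternal and 491 and 493 CPM paternal in Abl.1, and 768 and 868 CPM maternal in Abl.2, with totals that were not called different (log2 fold change -0.19 ± 0.18, adjusted p = 0.413). The total of Tgs1 was 1.48 times as high in Abl.2 as in Abl.1, short of the fold limit (log2 fold change 0.57 ± 0.19, adjusted p = 0.0496). In Rpa2 the maternal allele of Abl.2 was close to the sum of both alleles of Abl.1. In Eno1, the glycolytic enzyme enolase, the maternal allele was instead at similar levels in both clones: 2822 and 2248 CPM in Abl.1 and 2842 and 2768 CPM in Abl.2 (log2 fold change 0.15 ± 0.21, adjusted p = 0.592), and its total was 1.65 times as high in Abl.1 as in Abl.2.

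By position, the median log2 fold change of the maternal allele in 10 Mb windows, taken from the reference median, ranged from 0.23 to 1.31. It was at least 0.68 in every window but that from 60 to 70 Mb, where 15 genes had 0.23, and the median of their totals, also from the reference median, was -0.63. The highest was the window from 50 to 60 Mb with 21 genes and 1.31. The largest window, from 130 to 140 Mb with 92 genes, had 0.91 for the maternal allele and 0.03 for the total on the same scale. Single window medians were not tested.

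**Figure D2:**
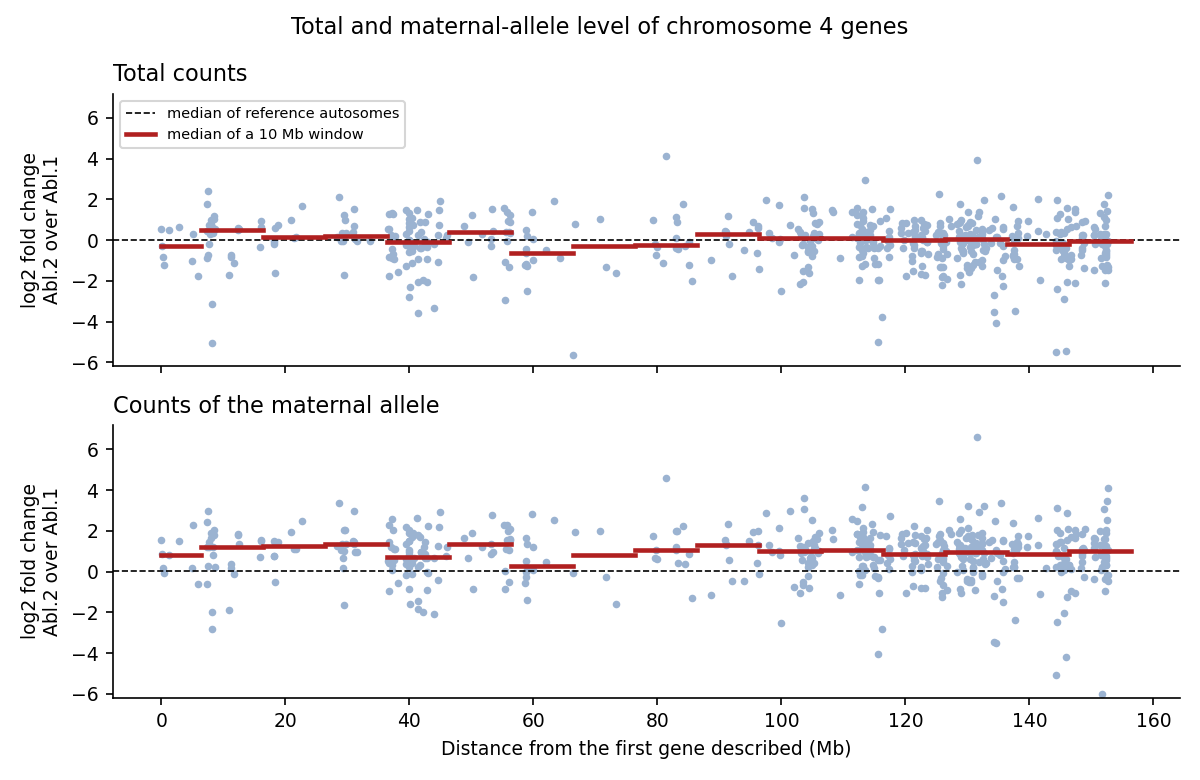
Log2 fold change (Abl.2 over Abl.1, edgeR) of total counts (upper panel) and of maternal-allele counts (lower panel) of each chromosome 4 gene by its distance in Mb from the first gene described, with medians of 10 Mb windows in red and the median of the reference autosomes dashed. Window medians lie on both sides of the dashed line for totals and above it for the maternal allele, and 1 gene below -6 (Prkcz, with no maternal count in Abl.2) is drawn at -6.

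Of the 571 genes, 27 (4.73%) had at least 10% paternal counts in both Abl.2 libraries. They were 15 of 24 pseudogenes, 10 of 535 protein-coding genes and 2 of 12 genes of other types by the GENCODE annotation. Of the protein-coding genes, 8 lay within 1.08 Mb, between Dnajb5 and Clta (chr4:42949814-44032846, GRCm38), a stretch with 19 of the 571 genes. The stretch was not even: 7 of its genes had a pooled AI of at least 0.99 in Abl.2, and they stand between the exceptions. In order, Fancg, a Fanconi anaemia protein, Stoml2, a mitochondrial stomatin-like protein, and the lymphocyte genes Cd72 and Sit1 had pooled AI values of 0.9986, 0.9985, 0.9966 and 0.9986. In between, Vcp, an ATPase of protein quality control, Pigo, an enzyme of GPI anchor synthesis, and Rgp1, a Golgi traffic protein, had 0.971, 0.934 and 0.975, and Gne, the sialic acid enzyme just past Clta, had 0.961. These neighbours were named after their values were seen.

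The exceptions of this stretch differed from one another in Abl.2. Hint2, a mitochondrial nucleotide hydrolase, had AI values of 0.488 and 0.475 in Abl.1 and 0.772 and 0.773 in Abl.2. In Clta, the clathrin light chain, they were 0.246 and 0.272 in Abl.1 and 0.508 and 0.511 in Abl.2, and in Glipr2, a Golgi-associated protein, 0.565 and 0.554 in Abl.1 and 0.866 and 0.867 in Abl.2. All 3 were higher in Abl.2, and the 2 libraries of a clone lay within 0.0265 of each other. Tln1, the integrin-linked cytoskeletal protein talin, had 0.491 and 0.397 in Abl.1 and 0.810 and 0.771 in Abl.2, and Gba2, a glucosylceramidase, had 0.331 and 0.378 in Abl.1 and 0.691 and 0.719 in Abl.2. Dnajb5, a heat shock protein co-chaperone, had 0.182 and 0.145 in Abl.1 and 0.316 and 0.259 in Abl.2, and Car9, a carbonic anhydrase with only 102 counts in Abl.2, had 0.103 and 0.112 in Abl.1 and 0.472 and 0.364 in Abl.2. Creb3, a membrane-bound transcription factor, was read almost only from the paternal allele in both clones, with 0.0098 and 0.045 in Abl.1 and 0.057 and 0.038 in Abl.2. In each of these 8 genes the pooled AI was higher in Abl.2 than in Abl.1, although the libraries of the clones overlapped in Creb3. The median ratio of Abl.1 to Abl.2 AI over the 10 protein-coding exceptions was 0.584 and over the genes that are no exceptions 0.513. The 10 include Prkcz and Gm12666, which lie outside the stretch, and the ratio of Prkcz is infinite because it had no maternal count in Abl.2. Where the Abl.2 AI is near 1, as in most genes that are no exceptions, the ratio is close to the Abl.1 AI itself.

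In kidney the same 8 genes had AI values between 0.351 and 0.533. Creb3 had 0.442 ± 0.0528 (SD, n = 6 libraries), far from its values in either clone, Clta 0.445 ± 0.0168 and Car9 0.483 ± 0.0569. Vcp had 0.880 ± 0.0173 in kidney and 0.704 and 0.635 in the Abl.1 libraries. Tln1 and Creb3 lie on opposite strands and overlap at an end, as do Creb3 and Gba2, Gba2 and Rgp1, and Car9 and the antisense gene Gm12454. The authors left out regions shared by genes when they summed counts. Gm12454 had 346 counts in Abl.1 and 825 in Abl.2, with pooled AI values of 0.803 and 0.779, against 523 and 102 counts in Car9. The part of Gm12454 reads in the values of Car9 was not tested. Total levels in the stretch moved in both directions. Hint2 had 964 and 459 CPM in Abl.1 and 144 and 148 CPM in Abl.2, with a log2 fold change of -2.29 ± 0.37 (SE) and an edgeR adjusted p = 0.00495. Clta also fell, from 293 and 163 to 104 and 108 CPM (log2 fold change -1.11 ± 0.30, adjusted p = 0.0268), and so did Car9 (log2 fold change -2.80 ± 0.40, adjusted p = 0.00324), while Glipr2 rose from 88.4 and 110.1 to 192 and 225 CPM (log2 fold change 1.07 ± 0.20, adjusted p = 0.008) and Gba2 from 8.65 and 14.2 to 20.5 and 27.2 CPM (log2 fold change 1.06 ± 0.32, adjusted p = 0.0394). The clones did not overlap in any of these 5 genes. Tln1 (log2 fold change -0.24 ± 0.17, adjusted p = 0.282), Dnajb5 (log2 fold change -0.23 ± 0.35, adjusted p = 0.616) and Creb3 (log2 fold change -0.58 ± 0.20, adjusted p = 0.056) were not called. The clones did not overlap in Tln1 and Creb3 either, and they did in Dnajb5.

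Most exceptions elsewhere were pseudogenes, and their AI was about the same in both clones. Over the 15 pseudogenes the median ratio of Abl.1 to Abl.2 AI was 1.03, and 13 of the 15 differed by less than 0.1. Gm11246 had 0.893 and 0.899 in Abl.1 and 0.894 and 0.887 in Abl.2, Gm12696 0.403 and 0.425 in Abl.1 and 0.419 and 0.406 in Abl.2, and Llph-ps1 0.503 and 0.526 in Abl.1 and 0.501 and 0.501 in Abl.2. Gm12726 had 0.323 and 0.333 in Abl.1 and 0.316 and 0.310 in Abl.2. In Gm12372, Gm12435 and Gm11249 the paternal allele gave over 0.95 of the counts in both clones, with pooled AI values of 0.0023, 0.0044 and 0.030 in Abl.2, and Gm12421 and Mrpl48-ps had 0 and 0.0074. Gm12918, Gm11942, Gm11847 and Chchd2-ps lay between 0.411 and 0.503 in Abl.2 and between 0.426 and 0.513 in Abl.1. The pseudogene Rps15a-ps4 was among the 2 that differed, with 0.391 and 0.515 in Abl.1 and 0.583 and 0.810 in Abl.2. The other was Gm11836, with 0.9 and 0.871 in Abl.1 and 0.762 and 0.821 in Abl.2. Outside the pseudogenes, 3 genes also had similar values in both clones. They were the protein-coding gene Gm12666 (0.279 and 0.273 in Abl.1 and 0.244 and 0.260 in Abl.2), the antisense gene Gm12454 inside the stretch above (0.784 and 0.818 in Abl.1 and 0.792 and 0.767 in Abl.2) and the noncoding gene Gm13166 (0.196 and 0.142 in Abl.1 and 0.133 and 0.185 in Abl.2). Exceptions beyond the 15 with the most counts were named after their values were seen. A processed pseudogene resembles the gene it was copied from, so which copy these counts came from is uncertain, and the part of such reads in these values was not tested. In kidney, AI was 0.082 ± 0.0308 in Llph-ps1 and 0.903 ± 0.108 in Chchd2-ps, away from both clones, and 0.022 ± 0.0376 in Gm12372 and 0.150 ± 0.0793 in Gm13166, around the values of the clones.

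Prkcz, the atypical protein kinase C zeta (chr4:155260129-155361361, minus strand), was read from the other allele in Abl.2. It had AI values of 0.538 and 0.584 in Abl.1, 0.436 ± 0.00941 (SD, n = 6 libraries) in kidney and 0 in both Abl.2 libraries, where all 197 counts were paternal, which allows a maternal share of up to 1.52%. Its total level was 4.85 and 4.27 CPM in Abl.1 and 4.76 and 3.28 CPM in Abl.2, with ranges that overlapped (log2 fold change -0.18 ± 0.39, adjusted p = 0.725). The maternal allele was at least 41.8-fold lower in Abl.2, counted against a floor of 3 counts over both libraries. The neighbours on either side, Faap20, a Fanconi anaemia core complex protein, and Nadk, the NAD kinase, were read from the maternal allele in Abl.2 (0.9992 and 0.9986 in Faap20, 0.9947 and 0.9965 in Nadk). Only Gm12421 also had no maternal count in Abl.2, and it had none in Abl.1 either.

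**Figure D3:**
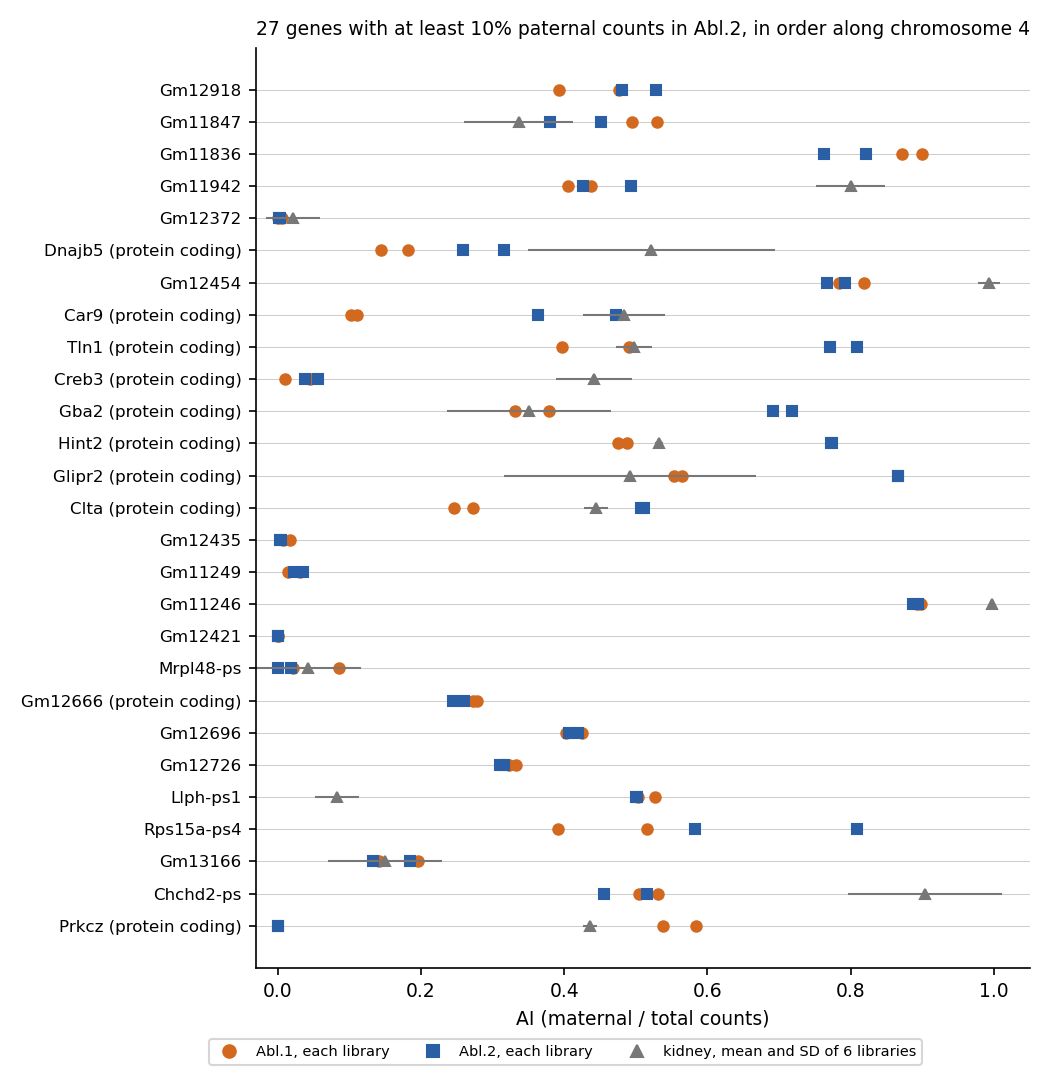
AI of the 27 genes with at least 10% paternal counts in both Abl.2 libraries, in order along chromosome 4, with each Abl.1 library as a circle, each Abl.2 library as a square and the kidney mean with its SD over 6 libraries as a triangle where all 6 had 10 or more counts. Circles and squares lie together in most pseudogenes and apart in Prkcz and in the protein-coding genes from Dnajb5 to Clta other than Creb3.

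The reverse case, a gene with 1 allele already in Abl.1, was found in 16 genes with an AI above 0.9 or below 0.1 in both Abl.1 libraries. Of these, 9 were maternal and 7 paternal. Coro2a, an actin-binding coronin, was maternal in both clones (0.9924 and 0.99 in Abl.1 and 0.9983 and 0.9985 in Abl.2) and in kidney (0.987 ± 0.0314). Aldh1b1, a mitochondrial aldehyde dehydrogenase, had 1 and 0.9986 in Abl.1 and 1 and 1 in Abl.2 but 0.296 ± 0.0733 (SD, n = 6 libraries) in kidney. Aco1, the cytosolic aconitase that also binds iron-responsive elements, had 0.9981 and 0.9990 in Abl.1, 0.9992 and 0.9974 in Abl.2 and 0.188 ± 0.00937 in kidney. Ankrd6, a regulator of Wnt signalling, had no paternal count in either clone (261 and 384 counts) and 0.432 ± 0.0793 in kidney. Cd52, a small surface glycoprotein of lymphocytes, had 0.930 and 0.939 in Abl.1, 0.9993 and 0.9981 in Abl.2 and 0.477 ± 0.0706 in kidney. For these genes the maternal allele showed no call upward: its log2 fold change was -0.08 ± 0.20 in Coro2a, 0.17 ± 0.33 in Ankrd6, 0.52 ± 0.25 in Aco1 and -0.42 ± 0.36 in Cd52, none of them called, and Aldh1b1 fell (log2 fold change -1.98 ± 0.28, adjusted p = 0.00172). The noncoding genes Gm12715 and Gm13012 were maternal as well, with pooled AI values of 0.983 and 0.934 in Abl.1.

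Of the 7 genes read from the paternal allele in Abl.1, only the pseudogene Gm11223 was maternal in Abl.2. It had AI values of 0.021 and 0.019 in Abl.1 and 0.981 and 0.982 in Abl.2, and its total fell from 286 and 158 CPM to 4.39 and 4.44 CPM, 50.2-fold lower (log2 fold change -5.65 ± 0.37, adjusted p = 0.000241). The maternal allele alone was at 5.97 and 3.02 CPM in Abl.1 and 4.30 and 4.36 CPM in Abl.2 and was not called (log2 fold change -0.05 ± 0.43, adjusted p = 0.94), so the fall was that of the paternal counts. Runx3, described next, was paternal in 1 Abl.1 library (0.029) and less so in the other (0.258).

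The largest rise of total RNA among the 571 genes was that of Cntln, the centrosomal linker protein centlein. It had 7.21 and 8.69 CPM in Abl.1 and 133 and 145 CPM in Abl.2, 17.4-fold higher (log2 fold change 4.12 ± 0.21, adjusted p = 0.000148). Runx3, a Runt-domain transcription factor of lymphocytes, had 7.71 and 4.94 CPM in Abl.1 and 99.8 and 93.3 CPM in Abl.2 (log2 fold change 3.94 ± 0.28, adjusted p = 0.000305). Its maternal allele was at 1.99 and 0.144 CPM in Abl.1, from 35 counts, and at 99.8 and 93.3 CPM in Abl.2 (log2 fold change 6.59 ± 0.75, adjusted p = 0.000701), the largest rise of that allele among the 571 genes. It was 9.31 without replicate 1 of Abl.1 and 5.56 without replicate 2 of Abl.1, both called. Both genes were far apart between the clones in every library. Bach2, a repressor that acts in B cell development, rose from 15 and 14.9 CPM to 64.6 and 65.2 CPM (log2 fold change 2.12 ± 0.18, adjusted p = 0.000587). The stress-response gene Trp53inp1 rose from 5.41 and 4.13 to 23.2 and 27.9 CPM (log2 fold change 2.42 ± 0.27, adjusted p = 0.0015), and the ubiquitin ligase Rnf19b from 32.0 and 28.5 to 146 and 140.3 CPM (log2 fold change 2.24 ± 0.18, adjusted p = 0.000445). The 3 other genes among the 8 largest rises were Btbd19 (3.67 and 5.33 CPM in Abl.1 and 32.7 and 38.4 CPM in Abl.2), Plekhn1 (4.17 and 2.5 CPM in Abl.1 and 16.3 and 14.8 CPM in Abl.2) and Tmco4 (4.23 and 10.3 CPM in Abl.1 and 35.6 and 30.7 CPM in Abl.2), each called. The log2 fold change of Tmco4 was 2.18 ± 0.43 and 2.94 without replicate 2 of Abl.1. By the maternal allele, Plekhn1 had 4.09 ± 0.56, with 5.29 and 3.34 without replicates 1 and 2 of Abl.1, and Btbd19 had 4.15 ± 0.40, with 4.87 without replicate 2 of Abl.1. By the maternal allele alone, Hspb11, an intraflagellar transport protein, also stood among the 5 largest rises, with 0.933 and 1.25 CPM in Abl.1 and 14.9 and 12.5 CPM in Abl.2 (log2 fold change 3.64 ± 0.36, adjusted p = 0.000372).

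The largest falls were larger than the largest rises. Plod1, a lysyl hydroxylase of collagen, had 163 and 207 CPM in Abl.1 and 5.13 and 3.20 CPM in Abl.2, 44.4-fold lower (log2 fold change -5.47 ± 0.32, adjusted p = 0.000173). P3h1, a prolyl hydroxylase of collagen, fell from 92.2 and 115 to 4.39 and 2.12 CPM (log2 fold change -4.99 ± 0.39, adjusted p = 0.000436), and by 5.58 on the log2 scale without replicate 1 of Abl.2. Ctnnbip1, an inhibitor of β-catenin, fell from 195 and 144 to 3.93 and 3.72 CPM, 44.2-fold (log2 fold change -5.47 ± 0.25, adjusted p = 0.00014). In each of the 3 the maternal allele fell too, with log2 fold changes of -5.06 ± 0.31, -4.07 ± 0.37 and -4.21 ± 0.26, so RNA of both alleles fell (without replicate 1 of Abl.2, the maternal value of P3h1 was -4.66). Cdh17, a cadherin, fell from 419 and 435 to 12.6 and 13.4 CPM (log2 fold change -5.04 ± 0.20, adjusted p = 0.00014), and of its Abl.1 counts most were paternal (AI 0.226 and 0.202). Grhpr, the glyoxylate reductase, fell from 720.2 and 499 to 52.6 and 50.2 CPM (log2 fold change -3.57 ± 0.25, adjusted p = 0.000315) and was also mostly paternal in Abl.1 (0.295 and 0.298). The remaining 2 of the 8 largest falls beside Gm11223 were Sh2d5, an SH2-domain protein (144 and 203 CPM in Abl.1 and 11.4 and 9.37 CPM in Abl.2), and Hivep3, a zinc finger transcription factor (54.1 and 52.2 CPM in Abl.1 and 4.01 and 3.80 CPM in Abl.2), each called. Sh2d5 overlaps Kif17 on the other strand, as Cd52 does Crybg2 and Cd72 does Tesk1, and these counts were not split by strand. Kif17 had 1375 counts in Abl.1 and 1 in Abl.2, and the part of its reads in the fall of Sh2d5 was not tested. The 16 genes were picked among called genes whose clone ranges did not overlap, so that lack of overlap is part of the choice. It held for all 68 genes called higher and all 92 called lower.

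**Figure D4:**
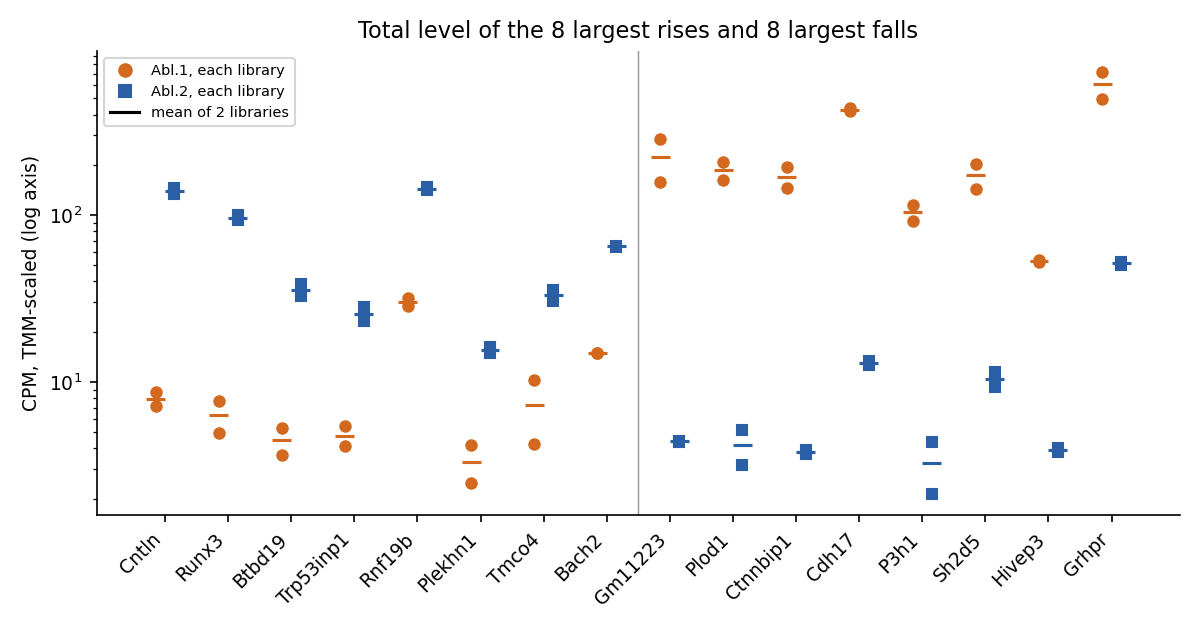
Total level (CPM, log axis) of the 8 chromosome 4 genes with the largest called rises (left of the line) and the 8 with the largest called falls (right), with each Abl.1 library as a circle, each Abl.2 library as a square and the mean of 2 libraries as a bar. Genes were picked among those whose clone ranges do not overlap.

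Genes were also grouped by role, and each group is described by its counts and its median, beside a median of 0.01 for totals on the reference autosomes. Over all genes tested 16.5% were called higher and 19.8% lower, and with library sizes set to the reference autosomes (the other scaling) 25.1% and 15%, with a reference median of 0.38. Of 17 lymphoid signalling and surface genes, 7 (41.2%) were called higher in Abl.2 and 3 (17.6%) lower, with a median log2 fold change of 0.16, and with the other scaling 8 were higher, 2 lower and the median was 0.52. The share of falls was near that of all genes. Pik3cd, the leukocyte PI3-kinase subunit, had 697 and 831 CPM in Abl.1 and 2215 and 2351 CPM in Abl.2 (log2 fold change 1.58 ± 0.20, adjusted p = 0.00208). Cd72, a modulator of the B cell receptor, rose from 701 and 671 to 1678 and 1811 CPM (log2 fold change 1.35 ± 0.18, adjusted p = 0.00268), and the kinase Jak1 from 19.97 and 12.5 to 62.7 and 63.5 CPM (log2 fold change 1.96 ± 0.27, adjusted p = 0.00286). Tlr4, the receptor for bacterial lipopolysaccharide, and Mknk1, Akna and Tnfrsf14 were the other rises. Laptm5, a lysosomal protein that limits receptor signalling, had 579.7 and 692 CPM in Abl.1 and 1055 and 1015 CPM in Abl.2 and was short of the fold limit (log2 fold change 0.70 ± 0.19, adjusted p = 0.0267). The 3 falls were Lck, a Src-family kinase (11.7 and 14.8 to 4.47 and 3.00 CPM, log2 fold change -1.83 ± 0.34, adjusted p = 0.00784), the calcineurin regulator Rcan3 and the TNF receptor Tnfrsf1b (157 and 277 to 54.9 and 56.6 CPM). Lyn, the main Src-family kinase of B cells, was not called (40.6 and 66.9 CPM in Abl.1 and 45.9 and 43.1 CPM in Abl.2, log2 fold change -0.27 ± 0.27, adjusted p = 0.443), and its maternal allele was at 17.2 and 31.9 CPM in Abl.1 and 45.8 and 42.9 CPM in Abl.2.

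Of 16 transcription factor genes, 6 (37.5%) rose, against 16.5% of all genes, and none fell, against 19.8%, with a median of 0.47, and with the other scaling 6 were higher, 0 lower and the median was 0.84. By edgeR's unadjusted p under 0.05, 1 was lower, and by DESeq2 with the same limits 0 fell and 6 rose. E2f2, which drives S phase genes, had 43.2 and 63.1 CPM in Abl.1 and 227 and 193 CPM in Abl.2 (log2 fold change 1.98 ± 0.24, adjusted p = 0.002). Nfx1, an X-box binding zinc finger protein, rose from 53.9 and 57.0 to 132 and 135 CPM (log2 fold change 1.27 ± 0.17, adjusted p = 0.00246). With Bach2 and Runx3, Mllt3 and Camta1 were the other rises. Zbtb17, the Myc partner Miz1, was not called: 62.8 and 90.3 CPM in Abl.1 and 80.4 and 72.8 CPM in Abl.2 (log2 fold change 0.00 ± 0.23, adjusted p = 0.997), while its maternal allele went from 34.8 and 41.8 to 80.3 and 72.8 CPM (log2 fold change 1.00 ± 0.21, adjusted p = 0.00785). That maternal ratio combines the total with the AI that singled out the chromosome, so nothing is read from its p.

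Of 14 chromatin genes 1 rose, the histone demethylase Kdm4a, and none fell, fewer than the 16.5% and 19.8% of all genes, with a median of 0.16, and with the other scaling 3 were higher, 0 lower and the median was 0.54. By edgeR's unadjusted p under 0.05, 2 were lower, and by DESeq2 0 fell and 2 rose. Hdac1, a histone deacetylase, had 435 and 696 CPM in Abl.1 and 309 and 309 CPM in Abl.2 (log2 fold change -0.87 ± 0.26, adjusted p = 0.0374). Anp32b, a histone chaperone (409.8 and 286 CPM in Abl.1 and 273 and 277 CPM in Abl.2), and Hmgn2, a nucleosome-binding protein (391 and 249 CPM in Abl.1 and 293 and 221 CPM in Abl.2), were not called. Of 18 cell cycle genes, 3 rose (Haus6, Stil and Tesk2), a share of 16.7% that is near that of all genes, and with the other scaling 5 were higher, 0 lower and the median was 0.60. The 1 that fell was Nudc, a dynein-associated protein, from 2171 and 1738 to 756 and 760.1 CPM (log2 fold change -1.37 ± 0.20, adjusted p = 0.0037). Stmn1, the microtubule-destabilising protein stathmin, was mostly maternal in Abl.1 (0.913 and 0.887) and in kidney (0.935 ± 0.0297), and its total was 1183 and 729 CPM in Abl.1 and 923 and 1039 CPM in Abl.2. Cdc20, the activator of the anaphase-promoting complex, had 326 and 363 CPM in Abl.1 and 195 and 178 CPM in Abl.2 and was short of the fold limit (log2 fold change -0.88 ± 0.18, adjusted p = 0.0101). Of 13 genes of DNA replication and repair only Mutyh, a DNA glycosylase, was called, and it rose, a share of 7.69% against 16.5% of all genes (median 0.26), and with the other scaling 4 were higher, 0 lower and the median was 0.64. None was lower at edgeR's unadjusted p under 0.05 or by DESeq2. Clspn, the checkpoint protein claspin, had 237 and 134 CPM in Abl.1 and 338 and 296 CPM in Abl.2 (log2 fold change 0.77 ± 0.30, adjusted p = 0.0781), and Pole3, a subunit of DNA polymerase epsilon, 168 and 172 CPM in Abl.1 and 188 and 209 CPM in Abl.2 (log2 fold change 0.22 ± 0.17, adjusted p = 0.317).

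The lowest medians were those of metabolism and translation. Of 21 genes of carbohydrate, redox and mitochondrial metabolism, 8 fell, among them Akr1a1, Alad, Atpif1, H6pd, Mtap, Scp2 and Urod, and 1 rose, with a median log2 fold change of -0.74, and the share of 38.1% lower stands against 19.8% of all genes. With the TMM scaling 3 of the 21 lay above the reference median. For this group with the other scaling 2 were higher, 3 lower and the median was -0.35, and its share of falls was then 14.3%, against 15% of all genes. Their maternal alleles had a median of 0.21, below the 0.99 of all chromosome 4 genes. Prdx1, a peroxiredoxin, had 1079.7 and 840.2 CPM in Abl.1 and 611 and 635 CPM in Abl.2 (log2 fold change -0.62 ± 0.20, adjusted p = 0.0481), and Sdhb, a subunit of succinate dehydrogenase, 959 and 749.7 CPM in Abl.1 and 511 and 515 CPM in Abl.2 (log2 fold change -0.74 ± 0.20, adjusted p = 0.0279). In both, as in Eno1, the clones did not overlap in total, and the maternal allele had log2 fold changes of 0.27 ± 0.22 and 0.23 ± 0.21. Mtap, which salvages methionine, fell from 209.5 and 255 to 60.4 and 56.0 CPM (log2 fold change -2.0 ± 0.19, adjusted p = 0.000831).

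Of 13 ribosomal protein and translation genes, 4 fell (Ebna1bp2, Eif3i, Mrto4 and Rpl22) and 1 rose, Eif4g3, with a median of -0.51. The falls were 30.8% of the group, against 19.8% of all genes, and with the other scaling 1 was higher, 1 lower and the median was -0.12. Rps6 had 2856 and 2186 CPM in Abl.1 and 1904 and 1839 CPM in Abl.2 (log2 fold change -0.43 ± 0.21, adjusted p = 0.146) and Rps20 975 and 603 CPM in Abl.1 and 447 and 447 CPM in Abl.2 (log2 fold change -0.82 ± 0.26, adjusted p = 0.0477). Both encode proteins of the small ribosomal subunit and were lower in both Abl.2 libraries than in either Abl.1 library, and neither passed the fold limit. Of 17 splicing and RNA-binding genes 3 fell (Magoh, Ppih and Zcchc17) and 1 rose (median -0.08), the falls being 17.6%, near the share of all genes, and with the other scaling 3 were higher, 2 lower and the median was 0.30, above 0. Ppih, a cyclophilin of the spliceosome, fell from 438 and 263 to 87.1 and 95.2 CPM (log2 fold change -1.94 ± 0.28, adjusted p = 0.00344). Snrnp40 and Smu1, both spliceosome proteins, had log2 fold changes of -0.69 ± 0.17 and -0.90 ± 0.17, short of the fold limit.

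Of 11 apoptosis and stress genes, 1 rose, Trp53inp1, and 2 fell, Kif1b, a kinesin, and Park7, the redox-sensing protein DJ-1, with 2194 and 1581 CPM in Abl.1 and 450.4 and 434 CPM in Abl.2 (log2 fold change -2.09 ± 0.23, adjusted p = 0.00137). The falls were 18.2% of the group, near the 19.8% of all genes, with a median of 0.26, and with the other scaling 3 were higher, 2 lower and the median was 0.63. Sesn2, a sestrin of the stress response, had 91.0 and 161 CPM in Abl.1 and 245 and 258 CPM in Abl.2 (log2 fold change 1.00 ± 0.29, adjusted p = 0.0358), just short of the fold limit, and the co-chaperone Dnaja1 284 and 317 CPM in Abl.1 and 181 and 257 CPM in Abl.2 (log2 fold change -0.46 ± 0.23, adjusted p = 0.148). Of 24 genes of membrane traffic, cytoskeleton and proteostasis, 5 fell (Clta, Ddost, Psmb2, Sec61b and Sh3bgrl3) and 1 rose, Clic4, an intracellular chloride channel protein, from 284 and 366 to 683 and 773 CPM (log2 fold change 1.16 ± 0.21, adjusted p = 0.0071). The falls were 20.8% of the group, near the 19.8% of all genes, with a median of -0.13, and with the other scaling 3 were higher, 3 lower and the median was 0.24. The GTPase Cdc42 had 359.9 and 327 CPM in Abl.1 and 300.4 and 329 CPM in Abl.2 (log2 fold change -0.13 ± 0.18, adjusted p = 0.584) and the phosphatase Ptp4a2 281 and 236 CPM in Abl.1 and 315 and 292 CPM in Abl.2 (log2 fold change 0.23 ± 0.18, adjusted p = 0.345). The median of the maternal allele ranged from 0.21 in metabolism to 1.82 in lymphoid signalling, beside a reference median of 0.04. The maternal ratio holds the AI that singled out the chromosome, so nothing is read from the place of the 10 groups above that median. Members named here beyond the top 3 by counts of a group were named because they were called, except Lyn, which was named after its values were seen.

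**Figure D5:**
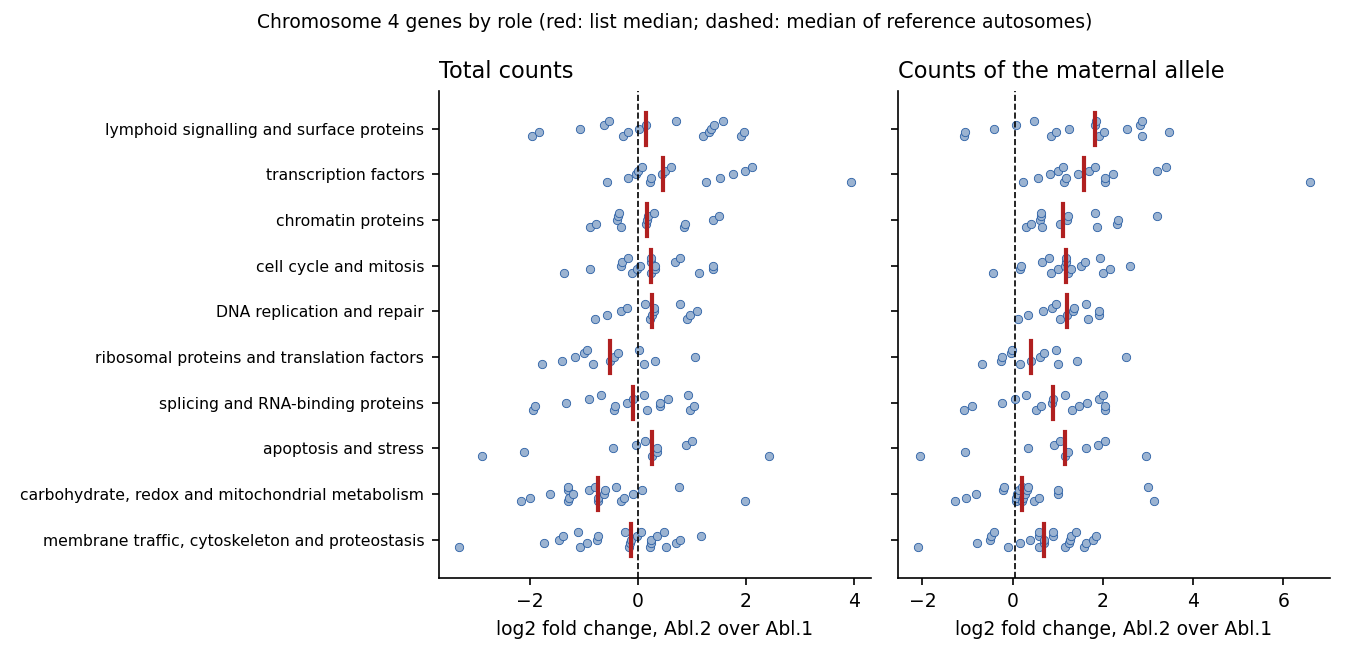
Log2 fold change (Abl.2 over Abl.1, edgeR) of total counts (left) and of maternal-allele counts (right) for chromosome 4 genes in 10 groups by role, 1 point per gene, with the group median in red and the median of the reference autosomes dashed. Group medians lie between -0.74 and 0.47 for totals and between 0.21 and 1.82 for the maternal allele.

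Kidney gives the AI of the same genes in another tissue with both parental strains. Of the 571 genes, 500 had 10 or more counts in all 6 kidney libraries, with a median AI of 0.508, and the median of single libraries ranged from 0.5 to 0.518. In 472 genes (94.4%) the mean lay between 0.3 and 0.7. A gene's bias in kidney had little relation to its total in the clones. Across 476 protein-coding genes with 1 allele in Abl.2, kidney AI and the log2 fold change of the total had a Pearson correlation of 0.0682 and a Spearman correlation of 0.0841, a weak relation across genes, which are not independent replicates. The 34 genes with a kidney AI under 0.4 had a median total log2 fold change of -0.33, the 392 genes from 0.4 to 0.6 0.06 and the 50 genes over 0.6 0.22, with middle ranges that overlapped. Kidney AI and Abl.1 AI were correlated at 0.221 (Pearson) and 0.186 (Spearman) over the same genes, and at 0.291 and 0.286 over 4660 genes of the reference autosomes. Between kidney AI and the log2 fold change of the total, those 4660 genes had correlations of -0.008 (Pearson) and -0.006 (Spearman). Their median total log2 fold changes in the same ranges of kidney AI, from low to high, were -0.10, 0.03 and -0.09.

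Of the 5 genes just inside the floor of 100 counts, 2 had only maternal counts in Abl.2 and 3 did not. Crybg2 with 106 counts in Abl.1 had an AI of 0.712 and 0.383 there and 1 in Abl.2, and Gm12743 with 104 had 0.5 and 1. Gm11249, Car9 and Gm11836, the other 3 inside, are among the exceptions, with 100, 102 and 108 counts in Abl.2. Just outside it, Pabpc4, Iffo2, Wdtc1, Foxd2os and Fam214b had pooled AI values between 0.463 and 0.566 in Abl.1 and between 0.998 and 1 in Abl.2.

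The sum of maternal and paternal counts ranged from 19213150 to 22241719 in the libraries of the clones and from 6360257 to 6397679 in those of kidney. The 2 Abl.1 libraries differed more from each other than the 2 Abl.2 libraries, with an SD of log2 CPM between libraries of 0.44 and 0.195 over the 571 genes. The median absolute difference in AI was 0.0388 in Abl.1 and 0.000763 in Abl.2. With AI near 1 in Abl.2 that difference has little room, so it does not compare the libraries. All 11 B-lineage markers were found in both clones, with summed levels of 10880 to 13020 CPM in Abl.1 and about 10050 CPM in Abl.2. The 5 T cell markers summed to at most 3.05 CPM and the 3 erythroid markers in the table to at most 2.54 CPM. The 5 myeloid markers, mostly Lyz2, summed to 207 to 212 CPM in Abl.1 and 264 to 274 CPM in Abl.2. Of the 5 kidney markers, Lrp2, Slc12a1 and Aqp2 were at 0, and the sum was 0 in Abl.1 and 9.17 and 12.2 CPM in Abl.2, from Umod and Slc34a1. The part of these markers in the results was not tested.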

How the data were processed

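The authors aligned RNA-seq reads to 129S1 and Cast/Ei pseudogenomes (GRCm38) with STAR 2.5.4a, subsampled the alignments to equal size, counted strain-specific bases with samtools mpileup and summed them over merged exons of Ensembl genes. Regions shared by genes were left out, and a read over several strain differences was counted at each. The deposited values used here are these raw counts per gene and allele, in 4 libraries of the clones, 2 repeat sequencings of Abl.2 and 6 kidney libraries. The library total was 19213150 to 22241719 counts in the first runs of the clones. The 2 libraries of a clone are preparation replicates, so p-values measure technical spread between them. The other kidney inputs were used only for alternative values of the median kidney AI and in the check of library medians for outliers. The alternative values were 0.505 with the NEBNext 100 ng libraries and 0.507 with the SMARTseq 100 pg libraries. The table's AI fractions were not used.

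Maternal and paternal counts were added per gene and tested with edgeR 4.0.16 (quasi-likelihood test, TMM scaling, genes with at least 10 counts in 2 of 4 libraries, Benjamini-Hochberg adjustment over all genes tested), and maternal counts were tested with the library sizes and factors of the totals. A gene was called at an adjusted p below 0.05 and a log2 fold change of at least 1. SE is the log2 fold change over the square root of F. The scripts were tested on simulated counts: of 200 changed genes, 176 were called in the total comparison and 171 in the maternal one, with 14 and 7 unchanged genes called among 12290 and 10915 genes. Alternatives were DESeq2 1.42.0, other scalings and filters, the second run, leaving out each library and a replicate block. Gene types and strands came from GENCODE M21 and promoters from RefSeq. Python 3.11.15 and R 4.3.3 were used.

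The 571 genes, the gene groups and the reference autosomes were chosen with earlier results of these data known. Named by rule were the exceptions (up to 15 by counts), the 8 largest called rises and falls of totals and 5 of each for the maternal allele with clones that did not overlap, the 3 members of each group with the most counts, genes with 1 allele in Abl.1 (up to 10), the first and last gene with neighbours of breaks, and the 5 genes nearest to the floor. Other genes were named after their values were seen. Some genes that these rules name are not reported here.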

Additional observations from a re-analysis of the deposited data

Results flagged for a closer look

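In the kidney libraries, 34 sets of 6 AI values were examined for 1 library far from the other 5, and 2 were found. The sets were those of single chromosome 4 genes and of the library medians of each kit and input. The chance rate of the rule, about 1 in 20, does not hold where the other 5 values are all 1, as in both. There any paternal count in 1 library is flagged. For Coro2a, replicate 2 had an AI of 0.923 and the other 5 libraries had 1. For Gm12454, replicate 5 had an AI of 0.963 and the other 5 libraries had 1.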

How the results depend on the processing

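Each of the 26 fold changes named as a largest rise or fall kept its direction and its call in all 283 alternative values, though leaving out 1 library moved some by over 1.5 times (Runx3, Plekhn1, Btbd19 and P3h1 by maternal counts, Tmco4 and P3h1 by totals). With library sizes set to the reference autosomes, 127 chromosome 4 genes were higher and 58 lower in total counts (68 and 92 with TMM), 18 were lower by the maternal allele (30 with TMM), and the medians were 0.40 for totals and 1.35 for the maternal allele. Plain library totals gave 0.37 and 1.33. Both scalings moved the reference autosomes as well, so the difference to them was 0.01 for totals (0.02 with TMM) and 0.95 for the maternal allele in each of the 3. Over the 525 protein-coding genes with 1 allele in Abl.2, an alternative chosen after seeing the data, the medians were 0.0734 and 1.03. The median share of the paternal allele in Abl.2 was 0.148% in the second run and 0.145% over both runs, against 0.126%, and the cause was not tested. Leaving out 1 library gave a median maternal log2 fold change of 0.94 to 1.03, a paternal share of 0.108% to 0.119%, and 2702 to 4254 genes called over the whole genome by maternal counts (4145 with all 4 libraries); the lowest was without replicate 2 of Abl.2, where the lone library was assumed to vary as those of the other clone. The number of genes with at least 10% paternal counts in both Abl.2 libraries, 27, was 18 at a floor of 200 counts. It was 30 at a share of 5% and 22 at 20%. A replicate block called 4517 genes in total counts (4546 without it), with 73 and 92 on chromosome 4, and 4328 by maternal counts. Libraries with the same number were correlated at 0.0852 over 12526 genes and at 0.134 over the 6263 above the median level, in 2 pairs only, and no label ties the numbers to a shared batch. DESeq2 called 69 and 99 chromosome 4 genes higher and lower. Differences below a doubling were not called whatever their precision, and at the floor of 100 counts a share under 3% cannot be told from 0.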
